A study of Mus musculus with 24 samples.

Results

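The transcripts described here come from the mitochondrial genome and were read in healing skin wounds of diabetic mice. Members were all genes whose symbol, looked up from the Ensembl identifier in the deposited tables, starts with mt- in lower case. That rule found 37 of the 54232 genes in the tables: 13 protein genes, 2 ribosomal RNA (rRNA) genes and 22 transfer RNA (tRNA) genes. The rule itself used no measured value, though the members were chosen with earlier results of these data known. Wounds came from male db/db mice, homozygous for a leptin receptor mutation (strain C57BLKS/J) and used as a model of obesity with type 2 diabetes. At the age of 16 weeks each wound, 6 mm across, was punched into the back skin and an alginate bandage was laid on it, with a fresh bandage on day 3. Tissue was taken on day 10, at 17.5 weeks. The bandages carried medium conditioned by primary macrophages or were control bandages. CM0 had 4 libraries with medium of M0 cells, CM1 had 4 with that of M1 cells, CMA had 5 with that of M2a cells, CMC had 5 with that of M2c cells, and Ctrl, the control bandages, had 6. By convention M0 stands for unpolarised cells, M1 for a proinflammatory state, M2a for a repair state and M2c for a deactivated state; the stimuli used here are not stated in the labels. All groups thus shared the leptin receptor mutation, the wound and the alginate. Each comparison asked whether a conditioned medium left the wound with another level of mitochondrial RNA than the control bandage did.

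The mitochondrial genome is a small circle that is transcribed from both strands into long RNAs covering many genes. Transfer RNAs lie between most of the protein and rRNA genes, and cutting the tRNAs out releases the RNAs on either side. The protein genes encode core subunits of respiratory complexes I, III and IV and of the ATP synthase, and the rRNAs form the core of the mitochondrial ribosome. Skeletal muscle, a tissue rich in mitochondria, lies as a thin sheet under mouse back skin.

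Sequences are given first for the tRNAs on which the counts turned, since all are of similar length while their counts over all libraries ran from 0 to 2054. The 4 tRNAs with the most counts were mt-Tp (proline), mt-Tc (cysteine), mt-Tm (methionine) and mt-Tn (asparagine), and mt-Td (aspartate) had no count in any library. Capitals mark the anticodon, taken as the middle 3 bases of a loop of 7 bases that is closed by a stem of 5 pairs. The sequences come from GENCODE M21 on GRCm38 and run 5′ to 3′ in the sense of the RNA. On chromosome M, mt-Tp lies at chrM:15356-15422 (minus strand), mt-Tc at chrM:5192-5257 (minus), mt-Tm at chrM:3845-3913 (plus), mt-Tn at chrM:5089-5159 (minus) and mt-Td at chrM:6942-7011 (plus).
mt-Tp: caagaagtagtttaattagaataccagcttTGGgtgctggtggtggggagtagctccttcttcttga
mt-Tc: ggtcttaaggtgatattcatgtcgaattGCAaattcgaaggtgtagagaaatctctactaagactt
mt-Tm: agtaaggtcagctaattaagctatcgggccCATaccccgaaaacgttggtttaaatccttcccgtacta
mt-Tn: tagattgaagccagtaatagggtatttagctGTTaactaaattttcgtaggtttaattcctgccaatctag
mt-Td: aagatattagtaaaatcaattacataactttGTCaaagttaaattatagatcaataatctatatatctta

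A further set shows how close several protein genes are to nuclear copies, whose part in the counts was not tested. An annotated pseudogene cluster on chromosome 1 repeats protein genes from mt-Co1 to mt-Nd4 almost base for base, mt-Co1 and mt-Nd4 in part. No copy of mt-Atp8 was found, and the bases between the genes were not searched. The start of mt-Nd3 (chrM:9459-9521, plus strand) is shown with its copy Gm28438 (chr1:24613057-24613119, minus strand). Both sequences come from the GENCODE M21 transcripts on GRCm38, and the capital marks the single base that differs, T3C, counted from 1 at the 5′ end with the base of mt-Nd3 first. The next sequence is the whole of mt-Atp8 (chrM:7766-7969, plus strand), in which capitals mark the 43 bases that also belong to mt-Atp6.
mt-Nd3: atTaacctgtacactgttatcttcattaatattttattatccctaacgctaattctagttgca
Gm28438: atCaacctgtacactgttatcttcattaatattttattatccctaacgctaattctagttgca
mt-Atp8: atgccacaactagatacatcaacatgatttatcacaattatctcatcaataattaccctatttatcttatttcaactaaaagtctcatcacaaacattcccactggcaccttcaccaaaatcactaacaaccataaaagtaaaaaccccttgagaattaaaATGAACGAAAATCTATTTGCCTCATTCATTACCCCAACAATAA

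Library depth ranged from 7267879 to 11985292 counts. Skin identity was checked with marker lists: the 12 keratinocyte markers summed to 6852 to 25320 CPM (counts scaled to library size, with TMM factors) and the 10 fibroblast markers to 66580 to 129106 CPM over the 24 libraries. Ctrl 3 stood apart in the hair follicle markers, with a sum of 8993 CPM against a median of 31.0 CPM in Ctrl. Ctrl 4 had the highest sum of skeletal muscle markers, 33787 CPM, and CM1 3 the highest sum of neutrophil markers, 1004 CPM. Results on CM1 and Ctrl are therefore also given without these 3 libraries.

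Mitochondrial transcripts made up 0.940% of all counts, 2138709 of 227448692. The protein genes held 57.7% of them (1233169 counts), the rRNA genes 42.1% (901284 counts) and the tRNA genes 0.199% (4256 counts). Over the libraries, the whole set took between 0.748% (CMA 3) and 1.34% (Ctrl 4) of the counts. Ribosomal RNA was removed with a Ribo-Zero kit before sequencing, and whether that kit also removes mitochondrial rRNA is not stated. The rRNA levels, and their ratios to the protein genes, may therefore not be those in the tissue.

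**Figure D1:**
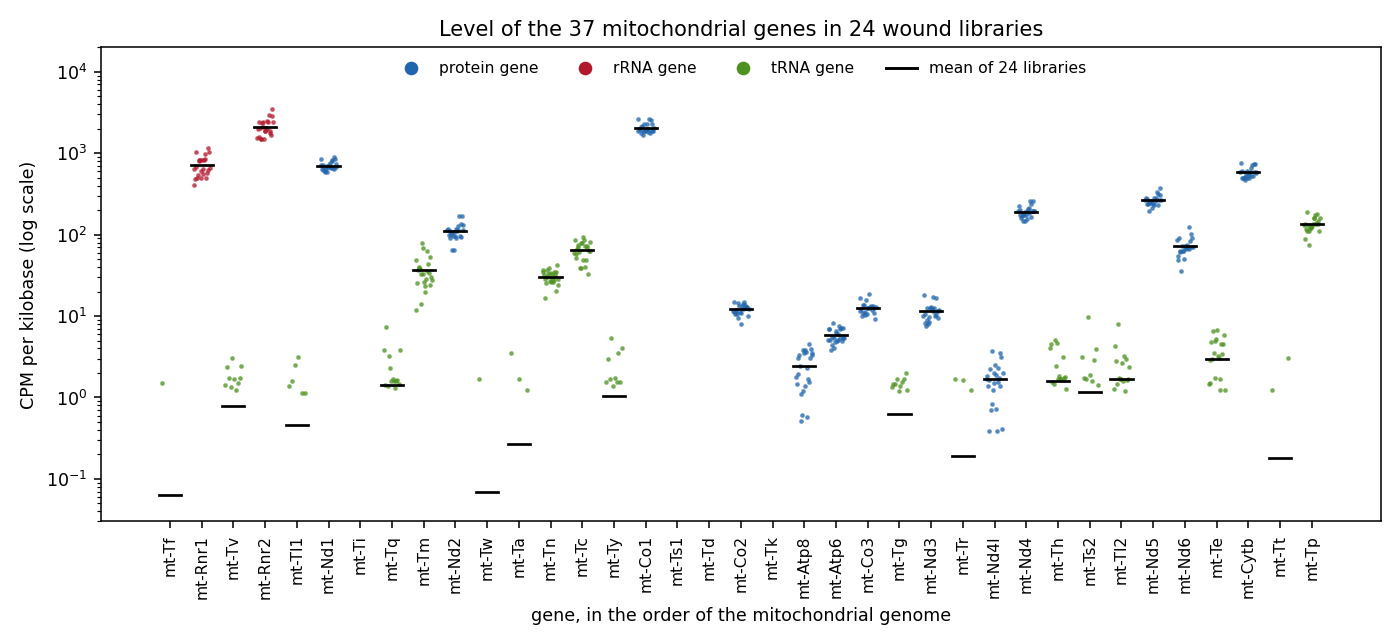
Level of each of the 37 mitochondrial genes in genome order, in CPM per kilobase of annotated length on a log axis. Points are the 24 libraries (values of 0 are not drawn) and black lines are means; the protein genes from mt-Co2 to mt-Nd4l lie between 1.71 and 12.6 CPM per kilobase, while mt-Co1 just before them averages 2053.

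Levels per gene length differed widely within each class. Among the rRNAs, mt-Rnr2, the large ribosomal subunit RNA (ENSMUSG00000064339, chrM:1094-2675), averaged 2106 ± 503 CPM per kilobase (SD, n = 24), and mt-Rnr1, the small subunit RNA (ENSMUSG00000064337, chrM:70-1024), 712 ± 203. The mt-Rnr2 level was 2.96 times the mt-Rnr1 level, with a range over libraries of 2.30 to 3.72, so mt-Rnr2 was the higher in all 24. Among the protein genes, mt-Co1, the catalytic subunit of cytochrome c oxidase (ENSMUSG00000064351, chrM:5328-6872), averaged 2053 ± 271 CPM per kilobase. That did not differ from mt-Rnr2 beyond the spread between libraries, since their ratio ran from 0.680 to 1.51.

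The next levels belonged to mt-Nd1 (ENSMUSG00000064341), a membrane subunit of complex I, with 707 ± 85.2 CPM per kilobase, and to mt-Cytb (ENSMUSG00000064370), the cytochrome b of complex III, with 582 ± 84.9. The means of mt-Rnr1 and mt-Nd1, and of mt-Nd1 and mt-Cytb, were apart by less than the sum of their SDs. That sum ignores that both genes were measured in the same libraries. It cannot decide whether the levels differed within libraries, and ratios of these pairs were not computed. The other complex I genes outside the block of low counts described next were lower over their whole annotated length. mt-Nd5 (ENSMUSG00000064367) stood at 265 ± 38.6 CPM per kilobase, mt-Nd4 (ENSMUSG00000064363) at 192 ± 30.9, mt-Nd2 (ENSMUSG00000064345) at 110 ± 25.3 and mt-Nd6 (ENSMUSG00000064368) at 71.7 ± 18.3. mt-Nd1 was 6.40 times mt-Nd2 per kilobase, with a range over libraries of 4.88 to 9.04.

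Protein genes between mt-Co2 and mt-Nd4l were a block of low counts. mt-Co3 and mt-Co2, the further mitochondrial subunits of cytochrome c oxidase (ENSMUSG00000064358 and ENSMUSG00000064354), had 12.6 ± 2.13 and 12.1 ± 1.73 CPM per kilobase. mt-Nd3, a complex I subunit (ENSMUSG00000064360), had 11.4 ± 2.75, and mt-Atp6, the proton channel subunit of the ATP synthase (ENSMUSG00000064357), had 5.78 ± 1.15. mt-Atp8 (ENSMUSG00000064356), a small ATP synthase subunit, had 2.43 ± 1.24, and mt-Nd4l (ENSMUSG00000065947), a small complex I subunit, had 1.71 ± 0.928. These 6 genes together held 6144 counts, while the other 7 protein genes held 1227025. Their median level was 8.60 CPM per kilobase, against 265 in the other 7. The mt-Co1 level was 169 times that of mt-Co2, with a range over libraries of 130 to 230, although the genes lie on the same strand with only tRNA genes between them.

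Each gene of the block except mt-Atp8 had an annotated unprocessed pseudogene on the minus strand of chromosome 1, between 24611535 and 24616197, that matched it at 99.7% or more over at least 99.0% of its length. The copies were Gm28661 of mt-Co2, Gm10925 of mt-Atp6, Gm28437 of mt-Co3, Gm28438 of mt-Nd3 and Gm10222 of mt-Nd4l. They held 932, 372, 997, 76 and 38 counts over all libraries, and mt-Co2, mt-Atp6, mt-Co3, mt-Nd3 and mt-Nd4l themselves held 1882, 888, 2247, 900 and 116. mt-Atp8, with 111 counts, lies inside the same stretch between the copied mt-Co2 and mt-Atp6. The same cluster copies the last 483 of the 1545 bases of mt-Co1 (Gm29216, with the substitution A1066T counted from the 5′ end of mt-Co1) and the first 876 of the 1378 bases of mt-Nd4 (Gm28439). Over its 1062 bases outside the copy alone, all counts of mt-Co1 would correspond to 2986 CPM per kilobase, and over its 502 bases outside the copy those of mt-Nd4 would correspond to 526.1 CPM per kilobase instead of 192. On that reckoning mt-Nd4 stands above mt-Nd5 (265), while over the whole length it stands below. The handling of reads that fit several places was not stated, and the part of the copies in the low counts of the block was not tested. More distant copies (95.2% to 97.6% identity) of mt-Co1, mt-Co2, mt-Nd2 and mt-Nd5 on chromosomes 2 and 13 held between 7 and 1868 counts. Alignments on a further chromosome were set aside, so copies there are not covered. Among the rest, at a cut-off of 95% identity over 100 bases, none belonged to the rRNAs, mt-Nd1, mt-Nd6 or mt-Cytb. The tRNAs, of 59 to 75 bases, are too short to reach that cut-off, so their copies were not searched.

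Among the tRNAs, counts were concentrated in few genes. mt-Tp averaged 134 ± 27.1 CPM per kilobase, mt-Tc 64.0 ± 16.7, mt-Tm 36.5 ± 16.4 and mt-Tn 30.5 ± 5.86, and the fifth by counts, mt-Te (glutamate), 2.96 ± 2.10. Per kilobase, mt-Tp lay within an SD of mt-Nd2 and mt-Tc within an SD of mt-Nd6. These tRNAs have 67 and 66 bases and the protein genes 1038 and 519. How such lengths affect the counts was not tested. mt-Te had 46 counts in all and mt-Tp 2054. Of the 22 tRNA genes, 4 were at 0 in every library: mt-Ti (isoleucine), mt-Ts1 (serine), mt-Td (aspartate) and mt-Tk (lysine). Of these, mt-Ts1, mt-Td and mt-Tk lie between mt-Co1 and mt-Atp8, inside the stretch whose protein genes have copies on chromosome 1, and mt-Ti lies outside it. Copies of the tRNAs were not searched, so the part of such copies in these zeros was not tested. A count of 0 allows up to 3 counts per library, between 0.250 and 0.413 CPM, a limit that covers counting error only. The other 13 tRNAs had between 1 and 27 counts each over the 24 libraries. Among them, mt-Tg (10 counts) and mt-Tr (3 counts) also lie in the stretch of the copied protein genes, while mt-Tf and mt-Tw, with 1 count each, lie outside it.

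Genes on the minus strand of the annotation held most of the tRNA counts. The 8 minus-strand tRNAs had 3588 of the 4256 tRNA counts and the 14 plus-strand tRNAs 668, of which mt-Tm had 561. On the minus strand the counts lay in few genes: mt-Tp had 2054, mt-Tc 959 and mt-Tn 487. The remaining minus-strand tRNAs had from 0 (mt-Ts1) to 46 (mt-Te). mt-Nd6 is the protein gene of that strand and had 8468 counts, beside 1224701 for the 12 plus-strand protein genes. Its level was lower than that of its plus-strand neighbours in all libraries: mt-Nd5 was 3.70 times mt-Nd6 (range 2.68 to 5.51) and mt-Cytb 8.11 times (range 5.83 to 14). The reads carry no strand, so for each of these genes reads of the opposite strand's RNA cannot be told apart from its own.

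Variation between libraries was larger for the rRNAs than for most protein genes. The coefficient of variation over the 24 libraries was 28.5% for mt-Rnr1 and 23.9% for mt-Rnr2, and between 12.1% (mt-Nd1) and 25.5% (mt-Nd6) for the 11 protein genes with enough counts to test, with a median of 16.1%. The highest library was 2.82 times the lowest for mt-Rnr1 and 2.34 times for mt-Rnr2, with Ctrl 4 the highest in both. For mt-Nd1, mt-Co1 and mt-Cytb it was 1.55, 1.60 and 1.62 times. mt-Nd6 spanned 3.49 times, from CM1 3 at the low end to CMC 5 at the high end. The 4 tested tRNAs had coefficients from 19.2% (mt-Tn) to 45.0% (mt-Tm), on few counts.

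Shares of the library by class overlapped between every medium and the control bandage. The protein genes took 0.561% ± 0.0928 of the counts in CM0, 0.488% ± 0.0432 in CM1, 0.512% ± 0.0475 in CMA, 0.560% ± 0.0677 in CMC and 0.580% ± 0.0811 in Ctrl (mean ± SD). The rRNA genes took 0.354% ± 0.0803 in CM0, 0.346% ± 0.0705 in CM1, 0.374% ± 0.0638 in CMA, 0.444% ± 0.0777 in CMC and 0.452% ± 0.140 in Ctrl. The tRNA genes took 0.00173% in CM0, 0.00186% in CM1, 0.00178% in CMA, 0.00197% in CMC and 0.00198% in Ctrl. Ctrl had the highest mean share in all 3 classes, but in TMM-scaled CPM the CMC mean was above the Ctrl mean for the rRNAs (4482 against 4427) and the tRNAs (19.9 against 19.4). The SD of each class share in Ctrl was larger than its distance to the CMC mean. In tissue RNA of this kind, fewer mitochondria-rich cells and less mitochondrial RNA per cell cannot be told apart.

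**Figure D2:**
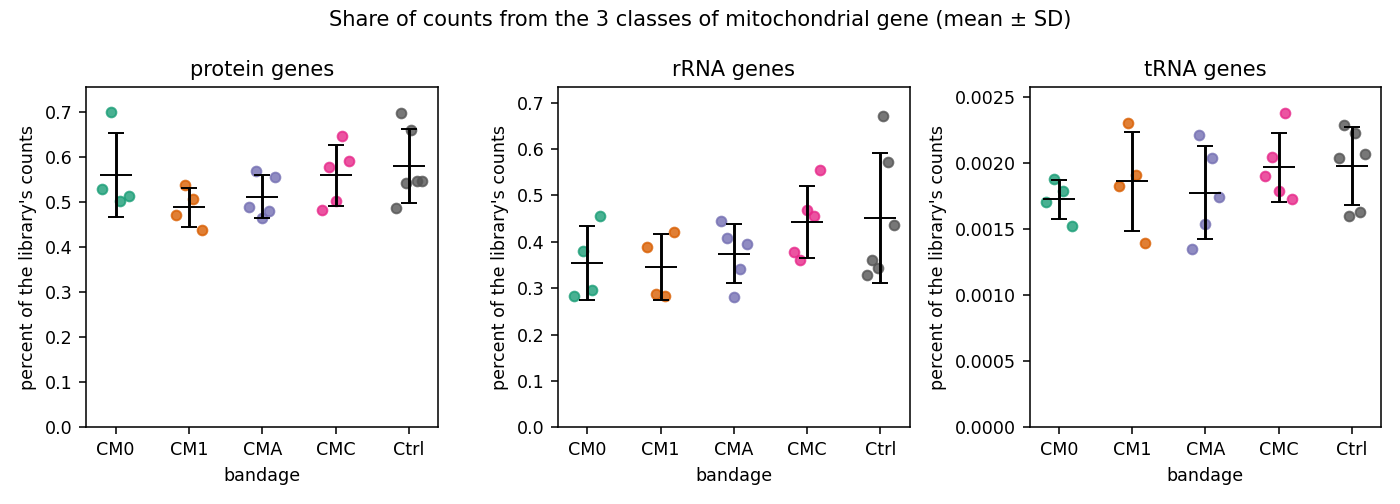
Percent of each library's counts from protein, rRNA and tRNA genes of the mitochondrial genome (y axis, separate scales from 0) in the 5 bandage groups (x axis). Points are libraries and bars mean ± SD; in each class the media overlap with Ctrl, whose rRNA shares run from 0.329% to 0.672%.

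For tests of single genes, 17 members had enough counts: both rRNAs, the 4 tRNAs mt-Tp, mt-Tc, mt-Tm and mt-Tn, and all protein genes except mt-Atp8 and mt-Nd4l. In the edgeR quasi-likelihood model over 18978 genes, 0 members passed an adjusted p under 0.05 in any of the 12 comparisons, and so did 0 of all genes (0.0%). DESeq2 and limma with quality weights also called 0 members. The values that follow are therefore estimates, and their intervals show which sizes of change the data leave possible, such as -0.73 to 0.09 on the log2 scale for mt-Rnr2 in CM0.

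Among the comparisons with Ctrl, the lowest estimates were in CM1, for the protein genes mt-Nd6 (log2 fold change -0.45) and mt-Nd2 (-0.44). The rRNA mt-Rnr2, at -0.35 in CM1, had a lower estimate than mt-Cytb, mt-Nd5 and mt-Nd4. Those protein genes are given next because they had the smallest p. mt-Cytb had 571, 574, 543 and 590 CPM in the 4 CM1 libraries, against a lowest of 604, a median of 673 and a highest of 846 CPM in the 6 Ctrl libraries. The groups did not overlap, and the nearest libraries were CM1 4 at 590 and Ctrl 1 at 604 CPM. The mt-Cytb log2 fold change was -0.33 ± 0.12 (SE; 95% interval -0.57 to -0.08) with an edgeR adjusted p = 0.695. Groups did not overlap for 1 of the 17 members in this comparison, beside 1.1% of all genes. It was 0 of 17 in CM0 (0.801% of all genes), CMA (0.327%), CMC (0.543%) and the media pooled (0.0105%).

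mt-Nd5, a proton-pumping subunit of complex I, had 434, 443, 356 and 469 CPM in CM1, against a lowest of 425, a median of 528 and a highest of 679 CPM in Ctrl. All but Ctrl 1 of the Ctrl libraries lay above the highest CM1 library. Its log2 fold change was -0.34 ± 0.12 (95% interval -0.58 to -0.09; edgeR adjusted p = 0.695). mt-Nd4, a further pumping subunit of complex I, had 224, 234, 204 and 248 CPM in CM1, against a lowest of 225, a median of 269 and a highest of 358 in Ctrl. Here too the overlap was with Ctrl 1 alone, and the log2 fold change was -0.33 ± 0.13 (95% interval -0.60 to -0.07; edgeR adjusted p = 0.695).

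mt-Cytb, mt-Nd5 and mt-Nd4 were among 6 of the 17 members with an unadjusted edgeR p under 0.05 in CM1 minus Ctrl, where 7.04% of all genes had one. The others were mt-Nd1, mt-Nd2 and mt-Nd6, and all 6 were protein genes with lower estimates in CM1, a direction that 3.68% of all genes had at that p. Of the 11 protein genes 10 had an estimate below 0, with mt-Co3 the exception, and their median log2 fold change was -0.33, beside -0.01 for all genes. The 2 rRNAs had a median of -0.31 and the 4 tRNAs of 0.04. Genes of a shared precursor RNA in the same libraries are not independent, so their number is not a number of separate observations. Without Ctrl 3, Ctrl 4 and CM1 3 the number at an unadjusted p under 0.05 was 0 of 17, beside 3.71% of all genes, and the median of the 17 was -0.18 instead of -0.26. Without CM1 3 alone the number was 2, beside 6.20% of all genes. CM1 3 had the lowest level of all 24 libraries in mt-Nd1, mt-Nd2, mt-Nd5, mt-Nd6, mt-Cytb and mt-Rnr2, but the highest of CM1 in mt-Co1, with 3371 CPM.

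The rRNAs and mt-Tp of CM1 overlapped with those of Ctrl. mt-Rnr2 had 3234, 2363, 2349 and 3703 CPM in CM1, against a lowest of 2661, a median of 3381 and a highest of 5490 in Ctrl. CM1 2 and CM1 3 lay below the Ctrl range and the others inside it, and the log2 fold change was -0.35 ± 0.20 (95% interval -0.76 to 0.07; edgeR adjusted p = 0.719). mt-Rnr1 had 649, 473, 519 and 757 CPM in CM1, against a lowest of 480, a median of 612 and a highest of 1107 in Ctrl. All but CM1 2 lay inside the Ctrl range, with a log2 fold change of -0.27 ± 0.26 (95% interval -0.82 to 0.27; edgeR adjusted p = 0.817). mt-Tp had 7.52, 12.6, 8.72 and 5.04 CPM in CM1, against a lowest of 7.51, a median of 9.68 and a highest of 12.2 in Ctrl, and a log2 fold change of -0.20 ± 0.18 (95% interval -0.57 to 0.16; edgeR adjusted p = 0.802). The CM1 values of mt-Tp enclosed those of Ctrl.

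**Figure D3:**
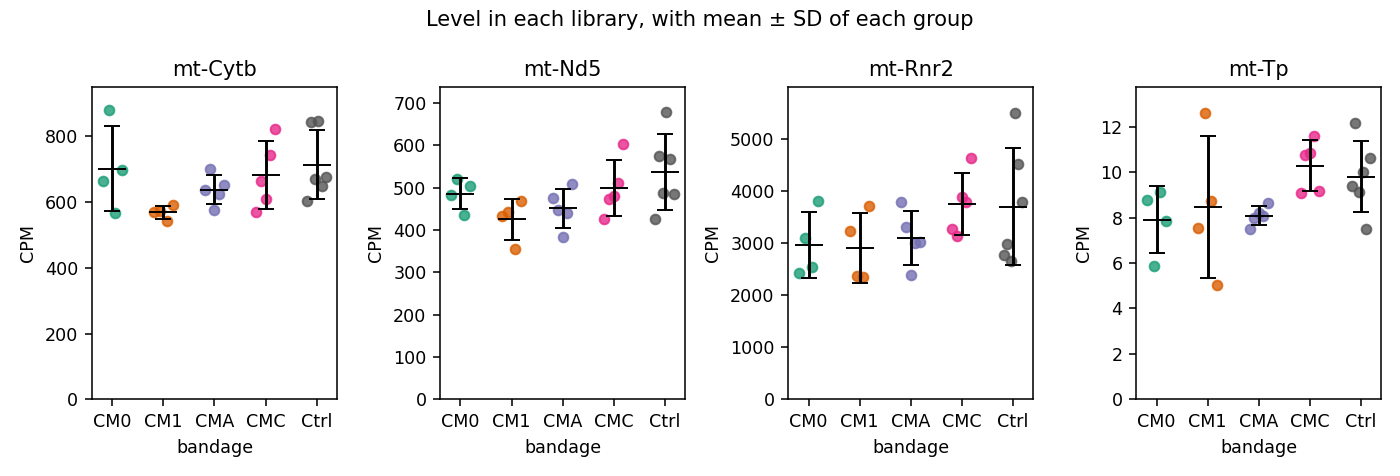
CPM (y axis, from 0) of mt-Cytb, mt-Nd5, mt-Rnr2 and mt-Tp in the libraries of each bandage group, with mean ± SD. The 4 mt-Cytb values of CM1 lie between 543 and 590 CPM, below the lowest Ctrl library at 604, while the groups overlap for the other genes.

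With CMA, 1 of the 17 members had an unadjusted edgeR p under 0.05, mt-Nd5, where 6.61% of all genes had one. It had 476, 447, 384, 439 and 508 CPM in CMA, against a lowest of 425, a median of 528 and a highest of 679 in Ctrl, and a log2 fold change of -0.25 ± 0.11 (95% interval -0.48 to -0.02; edgeR adjusted p = 0.733). CMA 3 lay below the Ctrl range and the others in its lower part. Leaving out CMA 3, CMA 4, Ctrl 2, Ctrl 4 or Ctrl 5 made the number of members 0 (4.46%, 5.84%, 7.02%, 5.05% and 5.75% of all genes), and leaving out Ctrl 3 made it 4 (7.92%). It was 3 without CMA 5, CMC 1, CMC 5 or Ctrl 1 and 2 without CM1 3 or Ctrl 6, with 6.04% to 9.93% of all genes. mt-Nd2, a complex I subunit, had 5 values between 67.8 (CMA 3) and 120.5 CPM (CMA 5) in CMA, against a lowest of 97.3, a median of 127 and a highest of 179 in Ctrl, with a log2 fold change of -0.35 ± 0.17 (edgeR adjusted p = 0.733). For mt-Nd4 the log2 fold change in CMA was -0.24 ± 0.12 (edgeR adjusted p = 0.733). The estimates of mt-Rnr2, mt-Rnr1 and mt-Tp were -0.26 ± 0.19, -0.08 ± 0.24 and -0.28 ± 0.17, with edgeR adjusted p-values of 0.812, 0.962 and 0.770. In all, 14 of the 17 estimates were below 0 and their median was -0.16.

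With CM0, 0 of the 17 members had an unadjusted edgeR p under 0.05, beside 4.92% of all genes, and the median of their log2 fold changes was -0.03. The rRNAs had the lowest class median, -0.28. mt-Rnr2 had 2421, 3102, 2540 and 3814 CPM in CM0, against a lowest of 2661, a median of 3381 and a highest of 5490 in Ctrl, a log2 fold change of -0.32 ± 0.20 (95% interval -0.73 to 0.09; edgeR adjusted p = 0.946). CM0 1 and CM0 3 fell below the Ctrl range and the others within it. mt-Rnr1 and mt-Tp were estimated at -0.23 ± 0.26 (edgeR adjusted p = 0.959) and -0.31 ± 0.18 (0.946). mt-Nd5, mt-Nd6 and mt-Nd2, the protein genes with the smallest p, had -0.14 ± 0.12, -0.18 ± 0.21 and -0.15 ± 0.18, with edgeR adjusted p-values of 0.947, 0.961 and 0.963.

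With CMC, 0 of the 17 members had an unadjusted edgeR p under 0.05, beside 8.55% of all genes, and the estimates were split into 9 above 0 and 8 below. mt-Co3 had 9.87, 14.8, 10.0, 10.6 and 9.24 CPM in CMC, against a lowest of 7.15, a median of 9.93 and a highest of 10.5 in Ctrl, with a log2 fold change of 0.22 ± 0.15 (95% interval -0.09 to 0.52; edgeR adjusted p = 0.698). CMC 2 carried the high value and the other 4 lay inside or at the edge of the Ctrl range. mt-Co2 was estimated at 0.15 ± 0.12 (edgeR adjusted p = 0.750) and mt-Nd5 at -0.11 ± 0.11 (0.809). mt-Rnr1, mt-Rnr2 and mt-Tp had 0.02 ± 0.24, 0.02 ± 0.19 and 0.07 ± 0.16, with edgeR adjusted p-values of 0.995, 0.990 and 0.940. The 95% interval of mt-Rnr2 in CMC ran from -0.37 to 0.40, and that of mt-Tp from -0.27 to 0.41.

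**Figure D4:**
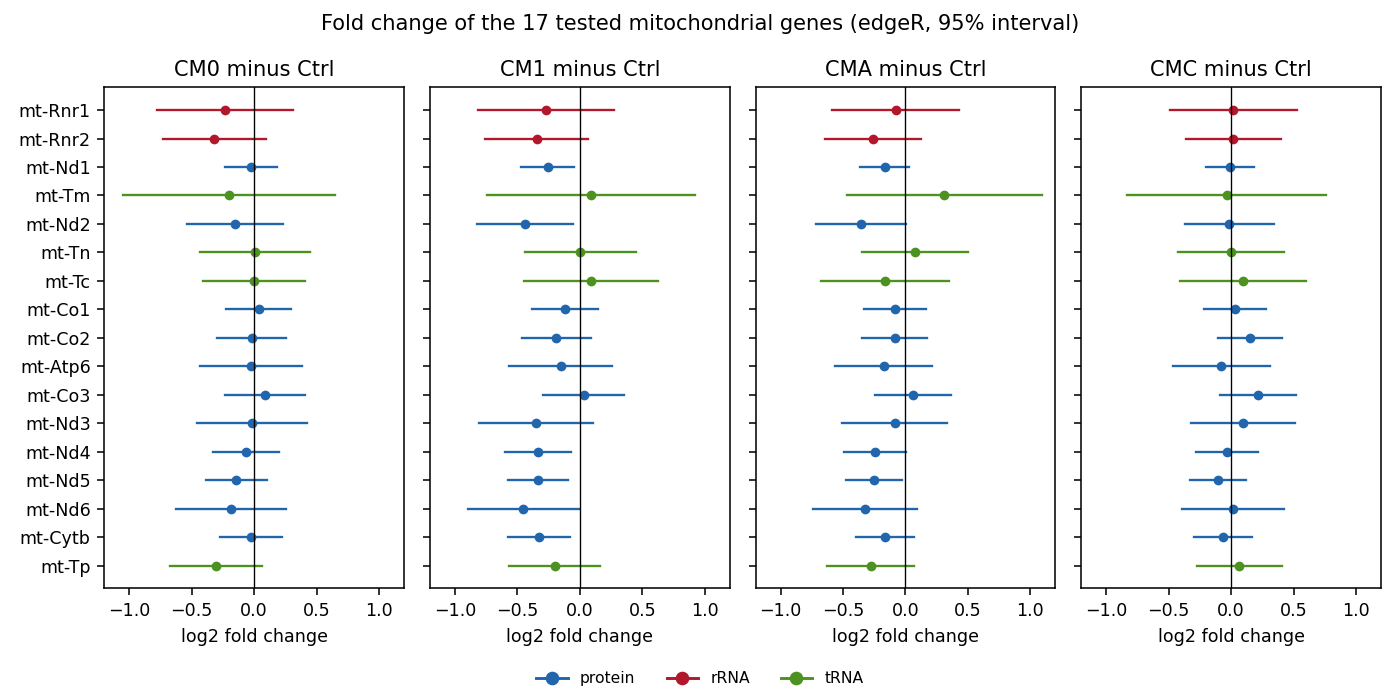
Log2 fold change (x axis, medium minus Ctrl) of the 17 tested mitochondrial genes (rows, in genome order) in the 4 media, from the edgeR model. Points are estimates, lines 95% intervals and colours the gene class; in CM1 the interval of mt-Cytb runs from -0.57 to -0.08 and no estimate has an adjusted p under 0.05.

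For the mean of the 4 media minus Ctrl, 13 of the 17 estimates were below 0 with a median of -0.12, and 1 member, mt-Nd5, had an unadjusted edgeR p under 0.05, where 9.42% of all genes had one. Its log2 fold change was -0.21 ± 0.08 (95% interval -0.38 to -0.03; edgeR adjusted p = 0.476). mt-Nd4 was at -0.17 ± 0.09 and mt-Nd2 at -0.24 ± 0.13 (edgeR adjusted p = 0.566 and 0.575). mt-Rnr2, mt-Rnr1 and mt-Tp were at -0.23 ± 0.14, -0.14 ± 0.19 and -0.18 ± 0.13 (edgeR adjusted p = 0.616, 0.829 and 0.656). Without Ctrl 2 or Ctrl 4 the number of members at an unadjusted p under 0.05 was 0 (9.19% and 6.18% of all genes), and without Ctrl 1 or CMC 5 it was 4 (12.8% and 10.0%). It was 3 without Ctrl 3 (7.48%) and 2 without CM0 2 or CM1 2 (10.6% and 9.97%). These comparisons share the 6 Ctrl libraries.

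Between media, CM1 minus CMC had 6 of the 17 members at an unadjusted edgeR p under 0.05, beside 2.71% of all genes, and CM1 minus CM0 had 2, beside 2.22%. Those of CM1 minus CMC were mt-Nd1, mt-Nd2, mt-Co2, mt-Nd4, mt-Nd6 and mt-Cytb, and those of CM1 minus CM0 were mt-Nd1 and mt-Cytb, all with lower estimates in CM1 (1.35% and 0.97% of all genes were lower at that p). In CM1 minus CMC the number was 2 without CM1 1, CM1 3 or CMC 5 (2.34%, 2.93% and 2.51% of all genes) and 1 without CMC 4 (2.72%). In CM1 minus CM0 it was 0 without CM0 2 or CM1 3 (1.81% and 2.48%), and leaving out any other single library gave between 1 and 3. The shares of all genes in those other fits are not given here, so these counts cannot be set against them. The other 4 pairs of media had 0 such members (background 3.14% for CMA minus CM0, 3.72% for CMC minus CM0, 4.0% for CM1 minus CMA and 6.16% for CMA minus CMC). In the test of any difference among the 5 groups 0 members had an unadjusted edgeR p under 0.05, beside 4.65% of all genes, and the smallest was 0.0672, of mt-Nd5.

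Ratios of single genes compare classes and strands within each library. The ratio of mt-Rnr2 to mt-Nd1 counts, the first protein gene behind it, was 4.24 ± 0.862 in CM0, 4.90 ± 1.23 in CM1, 4.87 ± 0.786 in CMA, 5.28 ± 0.736 in CMC and 5.20 ± 1.45 in Ctrl. The ratio of mt-Rnr1 to mt-Rnr2, the rRNAs of the small and large subunit, was 0.201 ± 0.0427 in CM0, 0.207 ± 0.00980 in CM1, 0.221 ± 0.0299 in CMA, 0.194 ± 0.0160 in CMC and 0.195 ± 0.0252 in Ctrl. The ratio of mt-Nd6 to mt-Nd5, which lie on opposite strands next to each other, was 0.0751 ± 0.0219 in CM0, 0.0703 ± 0.0129 in CM1, 0.0735 ± 0.00646 in CMA, 0.0830 ± 0.0135 in CMC and 0.0776 ± 0.00320 in Ctrl. All groups overlapped. In 12 two-sided exact permutation tests of the log2 ratios against Ctrl, the smallest p was 0.145 (mt-Rnr1 to mt-Rnr2 in CMA) and the smallest adjusted p was 0.710. The smallest p that the design allows is 0.00476 for 4 against 6 libraries and 0.00216 for 5 against 6.

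Across libraries, the rRNAs moved together, and so did the protein genes compared. The following 6 relations were computed on log2 CPM over the 24 libraries, with p-values from 100000 permutations, where 1e-05 is the smallest possible, and adjusted over the 6. All values of a library share its depth scaling. mt-Rnr1 and mt-Rnr2 had Pearson r = 0.895 and Spearman rho = 0.904 (permutation p = 1e-05 for both; adjusted 2e-05 and 3e-05), and r = 0.855 without Ctrl 4 and Ctrl 5, the libraries farthest from the median. mt-Nd1 and mt-Cytb had r = 0.910 and rho = 0.837 (permutation p = 1e-05 for both; adjusted 2e-05 and 3e-05), and r = 0.875 without Ctrl 2 and CM0 2. mt-Nd6 and mt-Nd5 had r = 0.823 and rho = 0.718 (permutation p = 1e-05 and 0.0001; adjusted 2e-05 and 0.0002), and r = 0.733 without CM1 3 and CMC 5; these genes overlap by 14 bases.

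mt-Rnr2 and mt-Nd1, from different classes, had r = 0.424 and rho = 0.367 (permutation p = 0.0388 and 0.0788; adjusted 0.0466 and 0.0890). Without Ctrl 4 and CMC 5 r was 0.219, so the relation rested on those libraries. With group means subtracted r was 0.306, with an adjusted permutation p of 0.146. mt-Rnr2 and Gm26917, a non-coding gene from the list of residual ribosomal and small RNAs with 27109 to 46776 CPM, had r = 0.306 and rho = 0.356 (adjusted permutation p = 0.143 and 0.0890), and r = 0.194 without Ctrl 4 and CMC 5.

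The number in the library title, which runs from 1 to 24 and whose meaning the labels do not give, was set against the rRNAs. This relation was looked at after the values were seen. Pearson r with the number was 0.563 for mt-Rnr1 and 0.494 for mt-Rnr2 (permutation p = 0.00461 and 0.0144, adjusted over 5 relations 0.0231 and 0.0357). Spearman rho was 0.529 and 0.432 (permutation p = 0.00876 and 0.0355, adjusted 0.0438 and 0.0592), so that of mt-Rnr2 missed the threshold after adjustment. For mt-Nd1 and mt-Co1 Pearson r was 0.129 and -0.03 (adjusted permutation p = 0.685 and 0.895; rho = 0.130 and 0.0696). The ratio of mt-Rnr2 to mt-Nd1 had r = 0.470 and rho = 0.464 (permutation p = 0.0214 and 0.0231; adjusted 0.0357 and 0.0578, so that its rho missed the threshold too). Without the 2 libraries farthest from the median number, r was 0.717 for mt-Rnr1, 0.576 for mt-Rnr2, 0.041 for mt-Nd1, -0.10 for mt-Co1 and 0.620 for the ratio. With group means subtracted r was 0.581 for mt-Rnr1 and 0.489 for mt-Rnr2 (adjusted permutation p = 0.0155 and 0.0387), and 0.444 for the ratio (0.0504). Spearman rho in that setting was 0.597, 0.460 and 0.500 (adjusted permutation p = 0.01265, 0.0415 and 0.0342). The ratio thus missed the threshold by r and passed it by rho.

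The groups did not share the numbers evenly: their mean was 8.75 in CM0, 13.2 in CM1, 10.8 in CMA, 12 in CMC and 16.3 in Ctrl. With the number as a covariate in the edgeR model, the log2 fold change of mt-Rnr2 for the mean of the media was -0.10 instead of -0.23, that of mt-Rnr1 0.05 instead of -0.14, and that of mt-Nd5 -0.15 instead of -0.21, and 0 members passed an adjusted p under 0.05. The part of the number in the group differences was not tested further.

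**Figure D5:**
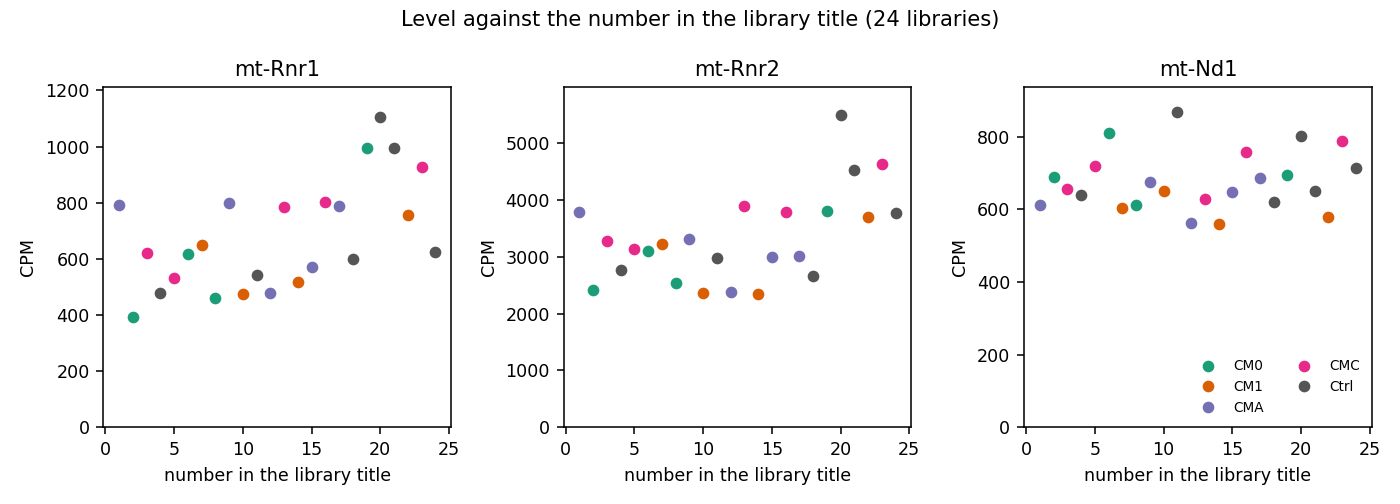
CPM of mt-Rnr1, mt-Rnr2 and mt-Nd1 (y axis, from 0) against the number in the library title (x axis), coloured by bandage group. Each point is 1 of 24 libraries; mt-Rnr1 (r = 0.563) and mt-Rnr2 (r = 0.494) are higher at high numbers, while mt-Nd1 has r = 0.129.

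A muscle marker and a mitochondrial protein gene were compared as a single pair. mt-Cytb and Ckm, the muscle creatine kinase, had r = 0.726 and rho = 0.670 over the 24 libraries (permutation p = 0.0001 and 0.00043; adjusted 0.00015 and 0.00064), and r = 0.563 without CM0 2 and Ctrl 4 (permutation p = 0.00625). The sum of the 19 skeletal muscle markers ran from 12298 to 30248 CPM in CM0, 8690 to 17145 in CM1, 5369 to 17465 in CMA, 6425 to 20946 in CMC and 11641 to 33787 in Ctrl. Each of these markers had counts in at least 1 library. Of the 18 tested, 18 had an estimate below 0 in CM1 (median log2 fold change -0.72), 18 in CMA (-0.73), 16 in CMC (-0.39) and 14 in CM0 (-0.12), with 0 at an edgeR adjusted p under 0.05 and 4, all in CMA, at an unadjusted p under 0.05, where 6.61% of all genes had one in CMA (7.04% in CM1, 8.55% in CMC and 4.92% in CM0). CM0 2, highest in its group for mt-Co1 and mt-Cytb, and Ctrl 4, highest in its group for mt-Cytb and mt-Nd5, had the highest muscle sums of their groups. CM1 3, lowest of all libraries in mt-Cytb, had the highest muscle sum of CM1, 17145 CPM. The part of muscle content in the lower protein gene estimates of CM1 and CMA was not tested.

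Nuclear genes that serve the mitochondrial genome were given alongside as lists. Of 21 genes for transcription and maintenance of mitochondrial DNA, 4 had an estimate above 0 and 17 below in CM1, with a median log2 fold change of -0.04, and medians in the other media lay between -0.04 and -0.03. The smallest p for any difference belonged to Twnk, the helicase of mitochondrial DNA replication, with 12.5 ± 0.736 CPM in CM0, 10.2 ± 0.573 in CM1, 13.6 ± 1.68 in CMA, 11.4 ± 1.44 in CMC and 14 ± 1.99 in Ctrl (edgeR unadjusted p = 0.00403, adjusted p = 0.929). The next was Rrm2b, a ribonucleotide reductase subunit, at 10.6 ± 1.80 CPM in CM1 and 11.3 ± 1.16 in Ctrl (edgeR adjusted p = 0.929). Of 30 genes for processing and decay of mitochondrial RNA, 9 were above 0 and 21 below in CM1 with a median of -0.04. Pde12, which trims poly(A) tails in mitochondria, stood at 37.3 ± 6.17 CPM in CM1 and 33.9 ± 4.52 in Ctrl (edgeR adjusted p = 0.929). Of 14 regulators of mitochondrial biogenesis, 7 were above 0 and 7 below in CM1; Sirt1, a deacetylase of the coactivator Pgc1a, stood at 20.8 ± 1.18 CPM in CM1 and 24.5 ± 2.23 in Ctrl, and Esrra, a nuclear receptor that drives genes of oxidative metabolism, at 38.4 ± 1.23 in CM1 and 34.2 ± 3.07 in Ctrl (edgeR adjusted p = 0.929 for both).

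Nuclear-encoded subunits of the respiratory chain, the partners of the mitochondrial protein genes, are given beside them. Of 39 tested, 16 had an estimate above 0 and 23 below in CM1 with a median log2 fold change of -0.01, where the 11 mitochondrial protein genes had -0.33; the difference between the lists was not tested. In CM0 31 of the 39 were above 0 (median 0.04), in CMC 28 (0.03) and in CMA 21 (0.02). Cox6a1, a nuclear subunit of cytochrome c oxidase, stood at 100.3 ± 4.97 CPM in CM1 and 87.4 ± 8.84 in Ctrl, and Ndufs1, a subunit of complex I, at 66.0 ± 5.02 in CM1 and 66.1 ± 3.33 in Ctrl (edgeR adjusted p = 0.929 for both). In these lists 0 genes passed an edgeR adjusted p under 0.05 in any comparison, beside 0.0% of all genes, and at an unadjusted p under 0.05 there were 1, 0, 1 and 1 genes in the lists for DNA maintenance, RNA processing, biogenesis and respiratory chain in CM1, beside 7.04% of all genes.

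Markers of the other cell types in the wound differed in estimate between CM1 and Ctrl as follows, with 0 at an edgeR adjusted p under 0.05, and 9 hair follicle, 3 neutrophil and 1 fibroblast marker at an unadjusted one, beside 7.04% of all genes. All 10 tested neutrophil markers were above 0 in CM1 (median log2 fold change 1.35), as were 10 of 10 fibroblast markers (0.31), 11 of 11 adipocyte markers (0.20), 7 of 12 keratinocyte markers (0.27) and 8 of 12 macrophage markers (0.06). The 10 hair follicle markers were all below 0 (-5.01), where the Ctrl mean rested on Ctrl 3, and 8 of 9 residual ribosomal and small RNAs were above 0 (0.09). The neutrophil sum ran from 219 to 1004 CPM in CM1 and from 52.3 to 460 CPM in Ctrl. The part of these cells in the mitochondrial estimates was not tested.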

How the data were processed

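Raw gene counts were deposited by the authors, a table of 54232 genes for each of 24 libraries. Per the labels' protocols, total RNA was isolated from wound tissue with miRNeasy, depleted of ribosomal RNA with Ribo-Zero and made into libraries with NEBNext Ultra RNA, which does not mark the strand. The submitters' processing notes name bcl2fastq 2.17, FastQC, cutadapt, STAR, featureCounts, DESeq2 and GRCm38; the annotation release and the counting of multi-mapped reads were not stated. If such reads were dropped, genes with near-identical copies would be undercounted.

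Symbols, lengths, coordinates and transcript sequences came from GENCODE M21 on GRCm38, and 54165 identifiers had a symbol. Copies of the mitochondrial genes were sought among the other transcripts with blastn 2.17.0 (at least 95% identity over 100 bases). Alignments to transcripts of a single nuclear chromosome were set aside, so that search was not complete. Genes were filtered with filterByExpr of edgeR 4.0.16, which left 18978, scaled by TMM and tested in 1 robust quasi-likelihood model with a term per group (R 4.3.3). Adjusted p-values are Benjamini-Hochberg over all 18978 genes and were compared with 0.05. CPM are edgeR's counts scaled to the TMM-scaled library size, CPM per kilobase divides them by the annotated length, and log2 CPM used a prior count of 2. Each ± after a log2 fold change or its estimate is the SE from the edgeR model. Each ± after a level, share or ratio is an SD over libraries. DESeq2 1.42.0 and limma 3.58.1 served as alternatives, beside other scalings, no filter, 2-group fits and leaving out libraries; the fit with the title number as a covariate was added after seeing the data. The statistics were tested on simulated counts. In CM1 minus Ctrl, 40.0% of simulated 1.5-fold changes, 68.5% of 2-fold and 95.8% of 4-fold changes were called at an adjusted p under 0.05. Smaller changes were not simulated. The 55, 73 and 72 changed genes were in the same simulated set, and each gene was drawn independently. The rates may therefore not hold for the mitochondrial genes, whose real comparison had no called gene.

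Libraries took their group from the source labels and the replicate number from accession order. Pairs of libraries of a group differed by far more than counting noise (chi-square per gene from 10.3 to 45.4). The labels do not say which libraries came from separate mice beyond the numbers per group, so p-values measure the spread between these samples, and the number of counts sets the precision of the tRNAs. The members and the 12 companion lists (214 entries, 4 not matched) were chosen with earlier results of these data known. Levels are given for all members in classes. Fold changes are given for the 3 protein genes with the smallest p in a comparison, mt-Rnr1, mt-Rnr2 and mt-Tp, and companion genes are those with the smallest p for any difference in a list. Other genes singled out were chosen after their values were seen.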

Additional observations from a re-analysis of the deposited data

Results flagged for a closer look

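A library was far from the others of its group, by Dixon's test at the 95% level, in 7 of 115 groups of values tested (6.09%), and chance flags about 1 group in 20. In CM0, CM0 2 was high in mt-Co1, with 4127 CPM beside 3084 in the next library, and in the share of counts from protein genes, with 0.699% beside 0.528%. In CMC, CMC 5 was high in mt-Nd6, with 64.0 CPM beside 38.5, and in the ratio of mt-Nd6 to mt-Nd5, with 0.106 beside 0.0814. CMC 2 was high in mt-Co3, with 14.8 CPM beside 10.6. In Ctrl, Ctrl 5 was low in mt-Co2, with 6.79 CPM beside 8.43, and Ctrl 2 was high in mt-Nd3, with 5.74 CPM beside 4.13. The causes were not tested.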

How the results depend on the processing

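No mitochondrial gene passed an adjusted p under 0.05 under any alternative run, and the direction of the fold changes of named members of CM1 and of mt-Nd5, mt-Nd4 and mt-Nd2 held in all of them. DESeq2 called, among all genes, 1 in CM0, 1 in CM1, 4 in CMC, 1 for the mean of the media and 1 for any difference, where edgeR called 0; none was mitochondrial. Leaving out each library in turn gave 0 to 1 called genes for CM0 minus Ctrl (1 without CM0 2) and 0 to 5 for the mean of the media (5 without Ctrl 2). Some small estimates changed sign, and the cause was not tested. The mt-Rnr1 log2 fold change in CMA was 0.17 with the title number as a covariate and 0.0501 without Ctrl 3, Ctrl 4 and CM1 3, and for the mean of the media it was 0.0468 and 0.0031. With limma and quality weights, mt-Rnr1 and mt-Rnr2 in CMC were at -0.026 and -0.0284. The log2 difference of the ratio mt-Rnr1 to mt-Rnr2 in CM0 was -0.0129 by medians, that of mt-Rnr2 to mt-Nd1 in CM1 0.0433 without the 3 libraries, and in CMA 0.0444 with the title number. Leaving out each library gave ranges of -0.18 to 0.0801 for mt-Rnr1 in CMA, -0.0823 to 0.18 in CMC and -0.24 to 0.0171 for the mean, and -0.0707 to 0.16 for mt-Rnr2 in CMC. For the ratios they were -0.22 to 0.0405 (mt-Nd6 to mt-Nd5 in CM0), -0.0084 to 0.13 (CMC), -0.10 to 0.13 (mt-Rnr1 to mt-Rnr2 in CM0), -0.0419 to 0.0522 (CMC), -0.21 to 0.0589 (mt-Rnr2 to mt-Nd1 in CM1), -0.17 to 0.0333 (CMA) and -0.0503 to 0.15 (CMC). In the correlation mt-Rnr2 with mt-Nd1, r was 0.306 with group means subtracted and 0.211 without the 3 libraries (adjusted permutation p = 0.146 and 0.429). That of the ratio with the title number was 0.444 with group means subtracted, where rho was 0.500. No paired analysis was possible because the labels carry no replicate numbers. Counts limit the tRNAs, mt-Atp8 and mt-Nd4l most.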
